A study of Mus musculus with 6 samples.

Results

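Brown and beige fat genes were followed here in cells sorted from mouse bone marrow by Ebf2, a transcription factor that in other tissues of the mouse selects the brown fat fate. The set holds 10 genes, Ucp1, Cidea, Prdm16, Dio2, Tmem26, Tnfrsf9, Epsti1, Ppargc1a, Elovl3 and Cox8b, of 18193 genes measured. They were chosen as markers or regulators of heat-producing fat, and their values were taken from every probe set that the array's annotation pairs with exactly 1 gene, that gene being in the set. This gave 25 of 45037 probe sets, and 6 of the 10 genes had more than 1.

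Both groups were cells taken fresh from the marrow of untreated wild-type C57BL/6 mice in a gate that left out cells bearing CD45, TER119 or CD31, the surface markers of leukocytes, erythroid cells and endothelium. Ebf2-positive cells and Ebf2-negative cells within that gate gave 3 Affymetrix MOE430_2 arrays each, from amplified RNA of 1000 or 2000 cells. The sources used here give neither the age or number of the animals nor the way Ebf2 was detected. Nothing in the labels ties replicates to separate animals, so the p-values cover only the spread seen among these samples, possibly a technical one.

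Brown adipocytes burn fat to make heat, and beige adipocytes acquire the same ability within white fat depots. Uncoupling protein, encoded by Ucp1, lets protons leak back across the inner mitochondrial membrane. Prdm16 and Ppargc1a switch on the thermogenic genes, Dio2 makes active thyroid hormone inside the cell, and Cidea, Elovl3 and Cox8b belong to the lipid and respiratory equipment. Tmem26 and Tnfrsf9 are surface markers of beige precursors in the mouse, and Epsti1 has been used as a brown fat marker in human cells.

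Ucp1, Cidea, Elovl3 and Cox8b were dim in both groups, while Tmem26 and Dio2 were brighter in Ebf2-positive cells. Of the 10 genes, 4 were called higher in Ebf2-positive cells and 0 lower (limma with Benjamini-Hochberg adjustment over all 18193 genes, adjusted p below 0.05). Over all genes, 10.8% were called higher, 13.6% lower and 24.4% in either direction. At an unadjusted p below 0.05 the counts in the set were 5 higher and 0 lower. The share of all genes at this looser threshold is not given here, so such counts have no background beside them, also for the lists below. The median log2 difference was 0.70 over the 10 genes and 0.07 over all genes. The 4 called genes were Tmem26, Dio2, Tnfrsf9 and Epsti1. The count fell to 1 or 2 on leaving out any array, and Tmem26 was the gene called in each of those 6 fits.

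All differences are in log2 RMA signal, with the Ebf2-negative mean subtracted from the Ebf2-positive mean. A gene was represented by whichever of its single-gene probe sets was brightest on average. As a measure of dimness, 36 genes typical of liver, pancreas, testis, brain and other organs were taken, and the 95th percentile of their 48 probe sets, between 4.70 and 4.91 depending on the array, is called the dim level below. Probe sets differ in how well they bind, so a value under the dim level does not show that a transcript is absent. Of the 25 probe sets, 21 were at or under the dim level on all 6 arrays, 1 was above it on every Ebf2-positive array and 0 were above it on any Ebf2-negative array.

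**Figure D1:**
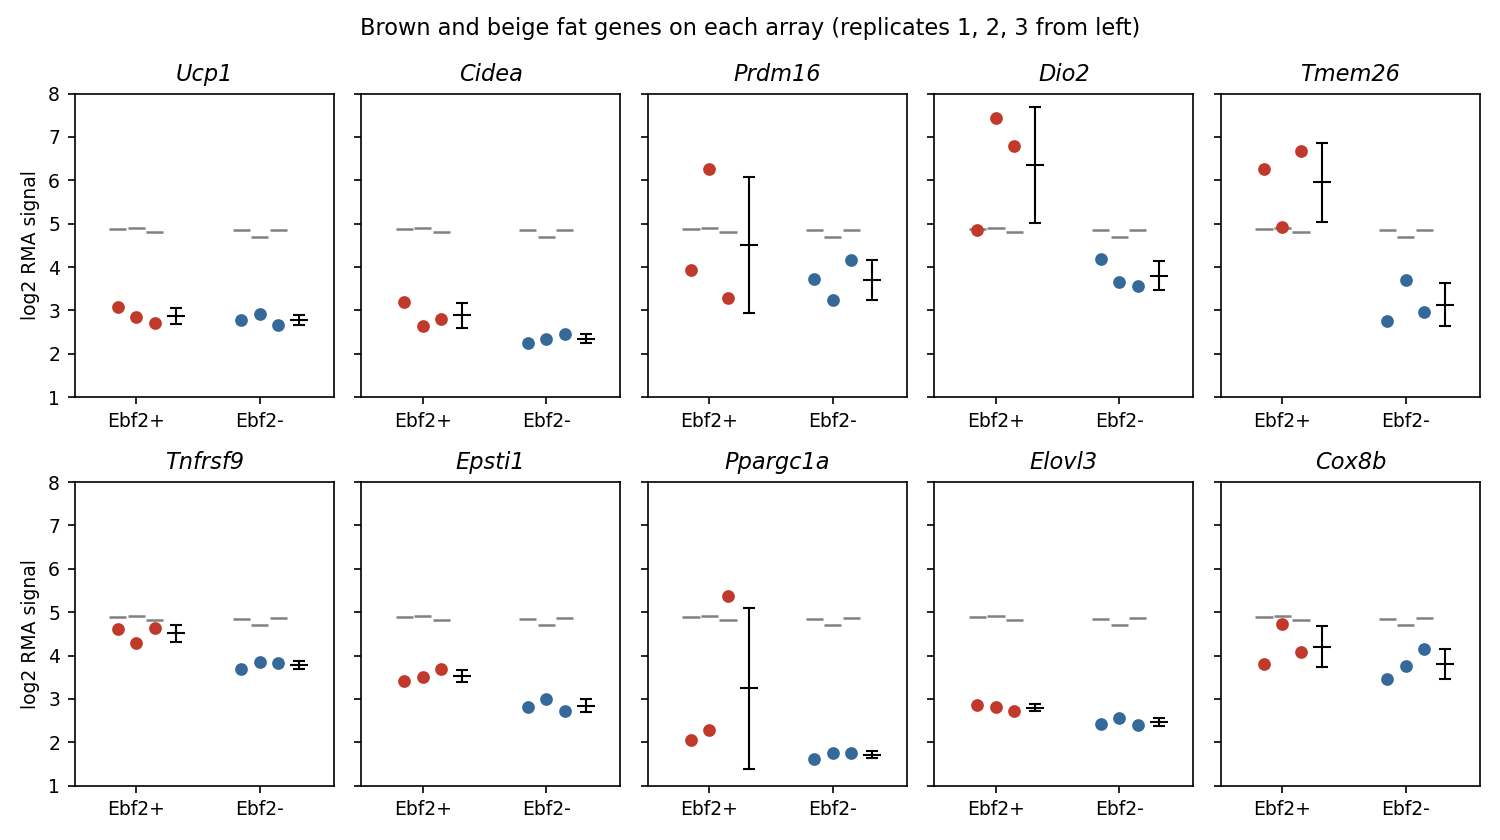
Log2 RMA signal (y axis) of the 10 genes on the 3 Ebf2-positive arrays (red, left) and the 3 Ebf2-negative arrays (blue, right), with replicates 1 to 3 from left to right, the dim level of each array as a grey line, and the mean with SD in black. Tmem26 lies above the dim level on 3 Ebf2-positive arrays, Dio2 on 2, Prdm16 and Ppargc1a on 1 each, and no gene does so on an Ebf2-negative array.

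The groups differed in much besides these genes. All 14 measured erythroid markers were called lower in Ebf2-positive cells, with a mean log2 signal of 4.67 to 5.29 on Ebf2-positive and 9.61 to 9.77 on Ebf2-negative arrays. Of 12 pericyte and fibroblast markers 10 were called higher and 0 lower, with means of 11.28 to 11.61 on Ebf2-positive and 6.59 to 7.53 on Ebf2-negative arrays. Ebf2 itself averaged 8.33 ± 0.41 in Ebf2-positive cells, against 3.66 ± 0.49 in Ebf2-negative cells (SD, n = 3 each), as the sort selected. Fewer cells of a type and less RNA per cell cannot be told apart in such samples, and the part of this mixture in the results on the fat genes was not tested. Spiked poly-A controls averaged 12.32 ± 0.23 on Ebf2-positive arrays, against 9.84 ± 0.996 on Ebf2-negative arrays (SD, n = 3 each), so that centring on them shifts every difference by -2.48. Each difference here therefore compares a gene with the rest of its array.

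Tmem26 and Dio2 were the members with the largest differences, and their promoters are shown for that reason. RefSeq promoter sequences (build GRCm38.p6) were found for 8 of the 10 genes, as 9 promoters, and the 250 bases before the transcription start were searched on both strands for the core of the EBF site (CCCNNGGG), the cyclic AMP response element (TGACGTCA) and the TATA box (TATAAA). Capitals mark the matches, written 5′ to 3′ on the strand of the gene, for Tmem26 at chr10:68723496-68723745 on the plus strand and for Dio2 at chr12:90739039-90739288 on the minus strand.
Tmem26: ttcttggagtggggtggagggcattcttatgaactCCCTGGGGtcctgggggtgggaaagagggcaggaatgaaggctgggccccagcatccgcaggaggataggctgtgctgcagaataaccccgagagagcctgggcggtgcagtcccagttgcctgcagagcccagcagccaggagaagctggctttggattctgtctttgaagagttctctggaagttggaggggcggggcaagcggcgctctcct
Dio2: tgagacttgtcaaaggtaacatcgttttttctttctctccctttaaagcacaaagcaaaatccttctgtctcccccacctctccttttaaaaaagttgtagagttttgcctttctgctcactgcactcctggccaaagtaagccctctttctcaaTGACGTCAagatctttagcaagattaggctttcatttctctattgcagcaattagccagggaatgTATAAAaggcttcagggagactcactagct

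The Tmem26 promoter held 1 match to the EBF core, CCCTGGGG, starting 215 bases before the transcription start. Such a match was present in 11.8% of 32851 mouse promoters of the same length. The Dio2 promoter held a cyclic AMP response element starting 95 bases before its start, found in 1.55% of promoters, and a TATA box starting 30 bases before it, found in 12.4%. No other promoter of the 9 held any of these motifs in this window. The matches describe these letters only, since binding was not measured.

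Among the surface markers of beige precursors, Tmem26, a transmembrane protein, had the largest difference of the 10 genes. Its log2 signal was 6.27, 4.92 and 6.67 in Ebf2-positive cells, against 2.75, 3.69 and 2.95 in Ebf2-negative cells. Every Ebf2-positive array stood above every Ebf2-negative array, although Ebf2-positive replicate 2 was just above the dim level of its array. The means were 5.95 ± 0.92 and 3.13 ± 0.49 (SD, n = 3 each), and the difference of 2.82 (SE 0.50, 95% interval 1.62 to 4.02) passed (limma, adjusted p = 0.00893). All 3 Ebf2-negative values were under the dim level, and with those arrays set at it the Ebf2-positive mean was 2.22-fold higher. Without single arrays the difference ran from 2.46 to 3.33 and the adjusted p from 0.00307 to 0.0411. Among 18 alternative settings the call was lost with poly-A centring alone, where the difference was 0.34 (adjusted p = 0.666). The second Tmem26 probe set, 1434583_at, was dimmer, at 2.30, 2.19 and 2.52 in Ebf2-positive cells, against 1.95, 1.86 and 2.03 in Ebf2-negative cells, and its difference of 0.39 did not pass (adjusted p = 0.198 over all probe sets).

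Tnfrsf9 encodes CD137, a receptor known first from activated T cells. Its brightest probe set was at 4.62, 4.28 and 4.62 in Ebf2-positive cells, against 3.68, 3.84 and 3.84 in Ebf2-negative cells. The groups did not overlap, and all 6 values were under the dim level. The difference of 0.72 (SE 0.19, 95% interval 0.26 to 1.18) passed narrowly (limma, adjusted p = 0.0379). It was called without Ebf2-positive replicate 2 (adjusted p = 0.0305) and lost without each of the other 5 arrays (adjusted p up to 0.119). The other two probe sets differed by 0.59 (adjusted p = 0.233) and 0.33 (adjusted p = 0.425).

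The CD137 ligand gene Tnfsf9, from the list of CD137 relatives, was at 5.48, 4.15 and 6.30 in Ebf2-positive cells, against 2.78, 3.02 and 2.86 in Ebf2-negative cells. Its difference of 2.42 (SE 0.52) was called (limma, adjusted p = 0.018), but leaving out Ebf2-positive replicate 1 or any of the Ebf2-negative arrays ended the call (adjusted p up to 0.0659). Of 10 measured ligand and receptor relatives 2 were called higher and 1 lower, with a median difference of 0.05. The others called were Tnfrsf1a, a receptor for tumour necrosis factor (1.96), and Traf2, an adaptor of these receptors (-2.58), whose call was lost without Ebf2-positive replicate 1 or any of the Ebf2-negative arrays (adjusted p up to 0.0763). Of 12 measured T and NK cell markers, 0 were called by limma in either direction and 0 passed an unadjusted p of 0.05. Their mean log2 signal was 3.72 to 3.81 on Ebf2-positive and 3.51 to 3.76 on Ebf2-negative arrays, and 8 of the 12 were at or under the dim level on all arrays.

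Epsti1, an interferon-inducible gene, was also called at a dim level. Its values were 3.42, 3.50 and 3.69 in Ebf2-positive cells, against 2.81, 3.01 and 2.72 in Ebf2-negative cells. The groups did not overlap, and the difference of 0.69 (SE 0.19, 95% interval 0.23 to 1.14) had an adjusted p of 0.0417 (limma). The call was lost on leaving out any of the 6 arrays (adjusted p from 0.053 to 0.151). Its other 3 probe sets, all under the dim level, differed by 0.03, -0.29 and 0.21 (adjusted p = 0.938, 0.496 and 0.474 over all probe sets), so the probe sets of Epsti1 did not share a direction. Of 19 measured interferon response genes, 0 were called higher by limma (2 at an unadjusted p below 0.05) and 2 lower, with a median difference of 0.18. Leaving out single arrays gave 0 to 1 higher, 1 to 3 lower and a median of 0.018, without Ebf2-negative replicate 1, to 0.23. The 2 were Rsad2, an antiviral enzyme (-4.52), and Ifih1, a sensor of viral RNA (-1.88), which lost its call without Ebf2-negative replicate 1 or 2 (adjusted p up to 0.0698).

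Dio2, the deiodinase that converts thyroxine to active thyroid hormone, was the other member above the dim level on more than 1 array. It stood at 4.86, 7.43 and 6.79 in Ebf2-positive cells, against 4.18, 3.66 and 3.55 in Ebf2-negative cells. The groups did not overlap, but Ebf2-positive replicate 1 was under the dim level and closer to the Ebf2-negative arrays than to the other two Ebf2-positive arrays. The means were 6.36 ± 1.34 and 3.80 ± 0.33 (SD, n = 3 each), with a difference of 2.56 (SE 0.65, 95% interval 1.01 to 4.12; limma, adjusted p = 0.0312). With the Ebf2-negative arrays, all under the dim level, set at it, the Ebf2-positive mean was 2.95-fold higher. This fold compares means only and leaves out the spread among arrays. The actin 3′ to 5′ signal ratio, a sign of RNA quality, was 31.4, 14.0 and 27.3 on the Ebf2-positive arrays, against 24.2, 15.9 and 19.5 on the Ebf2-negative arrays. It was highest on Ebf2-positive replicate 1, where Dio2 was the lowest of its group, and lowest on Ebf2-positive replicate 2, where Dio2 was highest. Tmem26 went the other way, at 6.27 on replicate 1 and 4.92 on replicate 2. On Ebf2-positive replicate 3 the ratio was 27.3 and Dio2 was at 6.79. Among the Ebf2-negative arrays, replicate 1 had both the highest ratio (24.2) and the highest Dio2 value (4.18). The part of the actin ratio in the Dio2 values was not tested. Leaving out Ebf2-positive replicate 1 gave a Dio2 difference of 3.31 with an adjusted p of 0.00346 (limma). The call was lost without each of the other 5 arrays, where the adjusted p reached 0.107.

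Other Dio2 probe sets did not show this difference. Probe set 1418938_at was at 4.05, 4.0 and 3.96 in Ebf2-positive cells, against 3.53, 3.87 and 3.77 in Ebf2-negative cells (difference 0.28, adjusted p = 0.341 over all probe sets). Probe set 1426081_a_at differed by -0.02 (adjusted p = 0.979), and with the mean of the 3 probe sets the Dio2 difference was 0.94 (adjusted p = 0.0676). Where on the transcript each probe set lies was not examined.

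The wider thyroid, cold and adrenergic signalling list had genes called in both directions. Of its 21 measured genes 7 were called higher and 3 lower, with a median of 0.61, and leaving out single arrays gave 6 higher without Ebf2-negative replicate 2, 4 higher without each of the others, and 2 to 3 lower. Among called genes the largest difference was that of Slc16a10, a transporter of aromatic amino acids and thyroid hormone (-4.75), followed by Fgfr1, a receptor for fibroblast growth factors (3.63). Pde3b, a phosphodiesterase that breaks down cyclic AMP (-3.16), and Prkar2b, a regulatory subunit of protein kinase A (-2.64), came next, the last losing its call without Ebf2-negative replicate 1 or 3 (adjusted p up to 0.072). Slc16a10 was at 3.37, 3.64 and 5.65 in Ebf2-positive cells, against 8.90, 9.31 and 8.70 in Ebf2-negative cells. Thra, the alpha thyroid hormone receptor, chosen after its value was seen, was higher by 1.67 (SE 0.29; limma, adjusted p = 0.00789). The deiodinase Dio1, also looked up afterwards, differed by 0.16 (adjusted p = 0.613).

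Ucp1, the defining gene of thermogenic fat, showed no difference past the threshold. Its log2 signal was 3.07, 2.85 and 2.71 in Ebf2-positive cells, against 2.77, 2.91 and 2.67 in Ebf2-negative cells. The groups overlapped and every value was under the dim level. The difference of 0.09 (SE 0.19; limma, adjusted p = 0.764) had a 95% interval from -0.37 to 0.56.

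Of the lipid genes, Cidea, a lipid droplet protein, was at 3.19, 2.65 and 2.81 in Ebf2-positive cells, against 2.24, 2.35 and 2.46 in Ebf2-negative cells. The groups did not overlap, yet the difference of 0.53 (SE 0.21, 95% interval 0.02 to 1.05) did not pass (limma, adjusted p = 0.127), and all values were under the dim level. Elovl3, an elongase of very long chain fatty acids, was at 2.87, 2.81 and 2.71 in Ebf2-positive cells, against 2.43, 2.57 and 2.41 in Ebf2-negative cells. Here too the groups were separate and dim, with a difference of 0.33 (SE 0.17; limma, adjusted p = 0.232). Cox8b, the subunit of cytochrome c oxidase found in muscle and brown fat, was at 3.80, 4.73 and 4.08 in Ebf2-positive cells, against 3.47, 3.77 and 4.16 in Ebf2-negative cells. Its groups overlapped, and the difference of 0.41 (SE 0.31, 95% interval -0.35 to 1.16) did not pass (limma, adjusted p = 0.41).

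Relatives of these genes were mostly not called. Of 14 measured CIDE family and lipid droplet genes 2 were called higher and 0 lower (4 and 0 at an unadjusted p below 0.05), with a median of 0.24. They were G0s2, an inhibitor of lipolysis (3.39), and Plin3, a coat protein of lipid droplets (2.18). G0s2 lost its call without any Ebf2-positive array or Ebf2-negative replicate 1 or 3 (adjusted p up to 0.108), and Plin3 without Ebf2-negative replicate 1 (adjusted p = 0.0529). Of 12 ELOVL and desaturase genes 1 was called higher, the desaturase Scd1, and 1 lower, the desaturase Fads2 (-1.83), with a median of 0.16. Elovl6, an elongase looked up after its values were seen, was at 3.17, 7.45 and 7.61 in Ebf2-positive cells, against 7.89, 7.49 and 7.85 in Ebf2-negative cells, with Ebf2-positive replicate 1 far below the rest (difference -1.66, adjusted p = 0.361).

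A single Ebf2-positive array stood apart on the brightest probe set of each of the transcriptional regulators in the set, but not on all their probe sets. Ppargc1a, the coactivator of mitochondrial biogenesis, was at 2.06, 2.29 and 5.38 in Ebf2-positive cells, against 1.63, 1.76 and 1.76 in Ebf2-negative cells. Ebf2-positive replicate 3 was alone above the dim level, and the other two stood slightly above the Ebf2-negative arrays. The difference of 1.53 (SE 0.86, 95% interval -0.54 to 3.59) did not pass (limma, adjusted p = 0.26), and without Ebf2-positive replicate 3 it was 0.46.

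A second Ppargc1a probe set, 1434100_x_at, had the same pattern, at 2.32, 1.87 and 4.65 in Ebf2-positive cells, against 1.70, 1.58 and 1.67 in Ebf2-negative cells. The remaining 3 did not, with values of 2.05, 2.21 and 1.86 on Ebf2-positive replicate 3 and differences of 0.40, 0.02 and 0.26. Ptprc, the gene of CD45, was lowest on that same array, at 6.68, 6.76 and 3.59 in Ebf2-positive cells, against 8.78, 7.98 and 8.23 in Ebf2-negative cells. Its part in the Ppargc1a value was not tested.

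Prdm16, the coregulator that directs cells to the brown fat fate, was at 3.93, 6.27 and 3.29 in Ebf2-positive cells on its brightest probe set, against 3.72, 3.24 and 4.15 in Ebf2-negative cells. Ebf2-positive replicate 2 was the only array above the dim level, and the other two lay within the range of the Ebf2-negative arrays. The difference was 0.79 (SE 0.76; limma, adjusted p = 0.505) with all arrays and -0.09 without Ebf2-positive replicate 2. On probe set 1440745_at replicate 2 was instead the lowest of the Ebf2-positive arrays, with 4.03, 3.37 and 3.73 in Ebf2-positive cells, against 3.0, 3.18 and 2.82 in Ebf2-negative cells. That probe set differed by 0.71 with groups that did not overlap (limma, adjusted p = 0.0959 over all probe sets). Replicate 2 was also the lowest Ebf2-positive array on 1429309_at (4.64, 3.67 and 4.67) and 1429308_at (2.55, 2.07 and 3.17). Their differences were 0.69 and 0.18 (limma, adjusted p = 0.244 and 0.761 over all probe sets). With the mean of all 4 probe sets Prdm16 differed by 0.59 and passed (limma, adjusted p = 0.044). None of the 4 passed singly, and those other than the brightest were under the dim level on all arrays. Among 18 alternative settings Prdm16 was called in 2, higher with this mean and lower with poly-A centring.

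**Figure D2:**
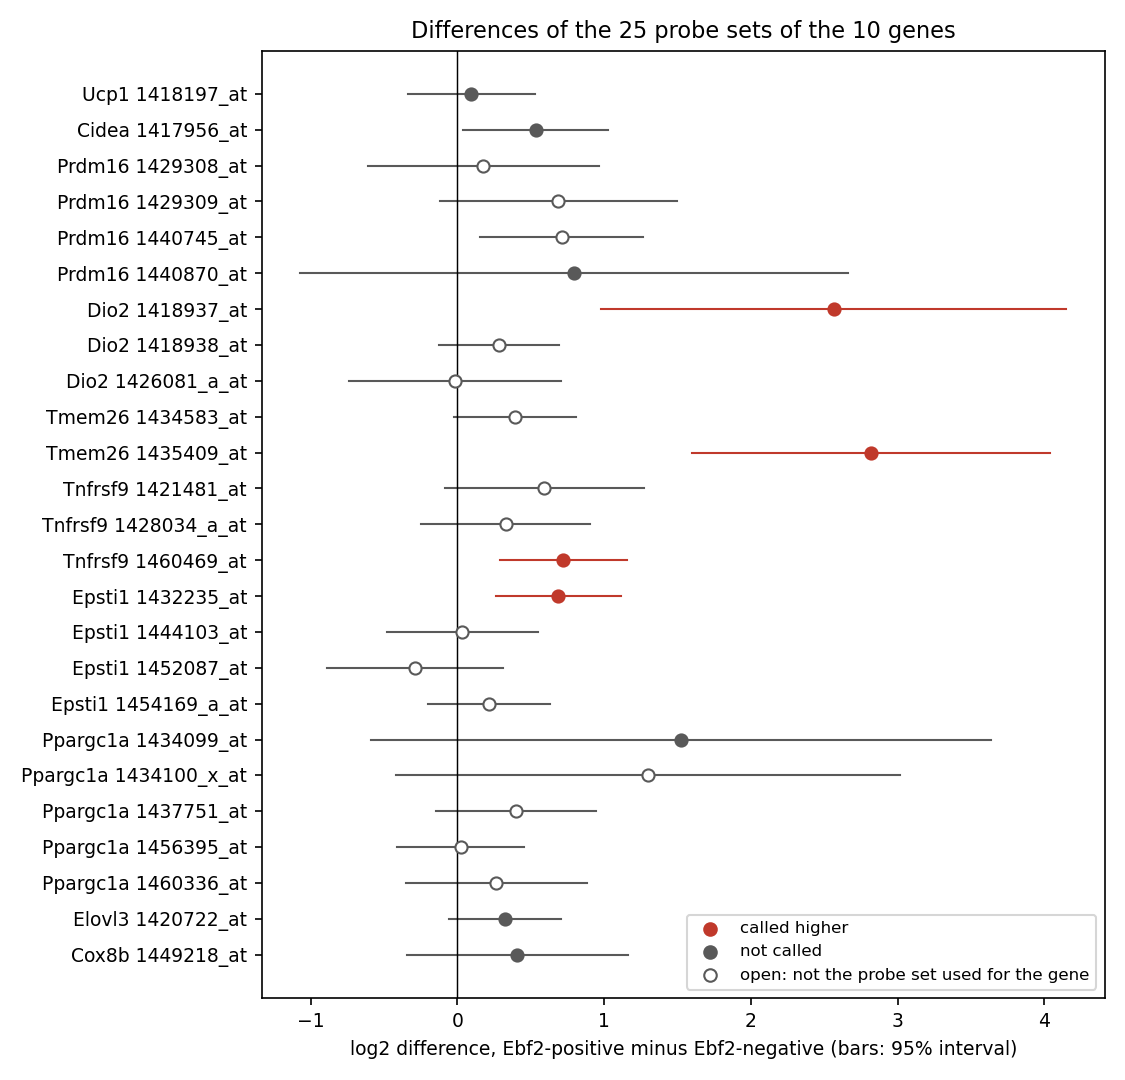
Log2 difference, Ebf2-positive minus Ebf2-negative (x axis), of the 25 probe sets of the 10 genes (rows), with 95% intervals from the fit over all probe sets. Called probe sets are red, and filled points are the probe sets that represent a gene. Each of the 4 called genes has 1 called probe set, and the others of Dio2, Epsti1, Tmem26 and Tnfrsf9 lie closer to 0.

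Taking probe sets singly, 4 of 25 were called higher and 0 lower, beside 6.39% called higher, 8.76% lower and 15.1% in either direction over all probe sets. They were the same 4 that represent Tmem26, Dio2, Tnfrsf9 and Epsti1, so no called gene had a second called probe set. Of the 25 probe sets 23 had a positive difference, but 21 were at or under the dim level on all arrays. The share of positive differences over all probe sets is not given here, and the median difference over all genes was itself positive (0.07). Every Ebf2-positive array stood above every Ebf2-negative array for 7 of the 10 genes and 12 of the 25 probe sets, beside 21.8% of all genes and 19.1% of all probe sets. For the 36 genes of other organs the count was 4, with a median difference of 0.15, and limma called 0 of them higher (1 at an unadjusted p below 0.05) and 1 lower, the elastase gene Cela1 (-4.43).

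**Figure D3:**
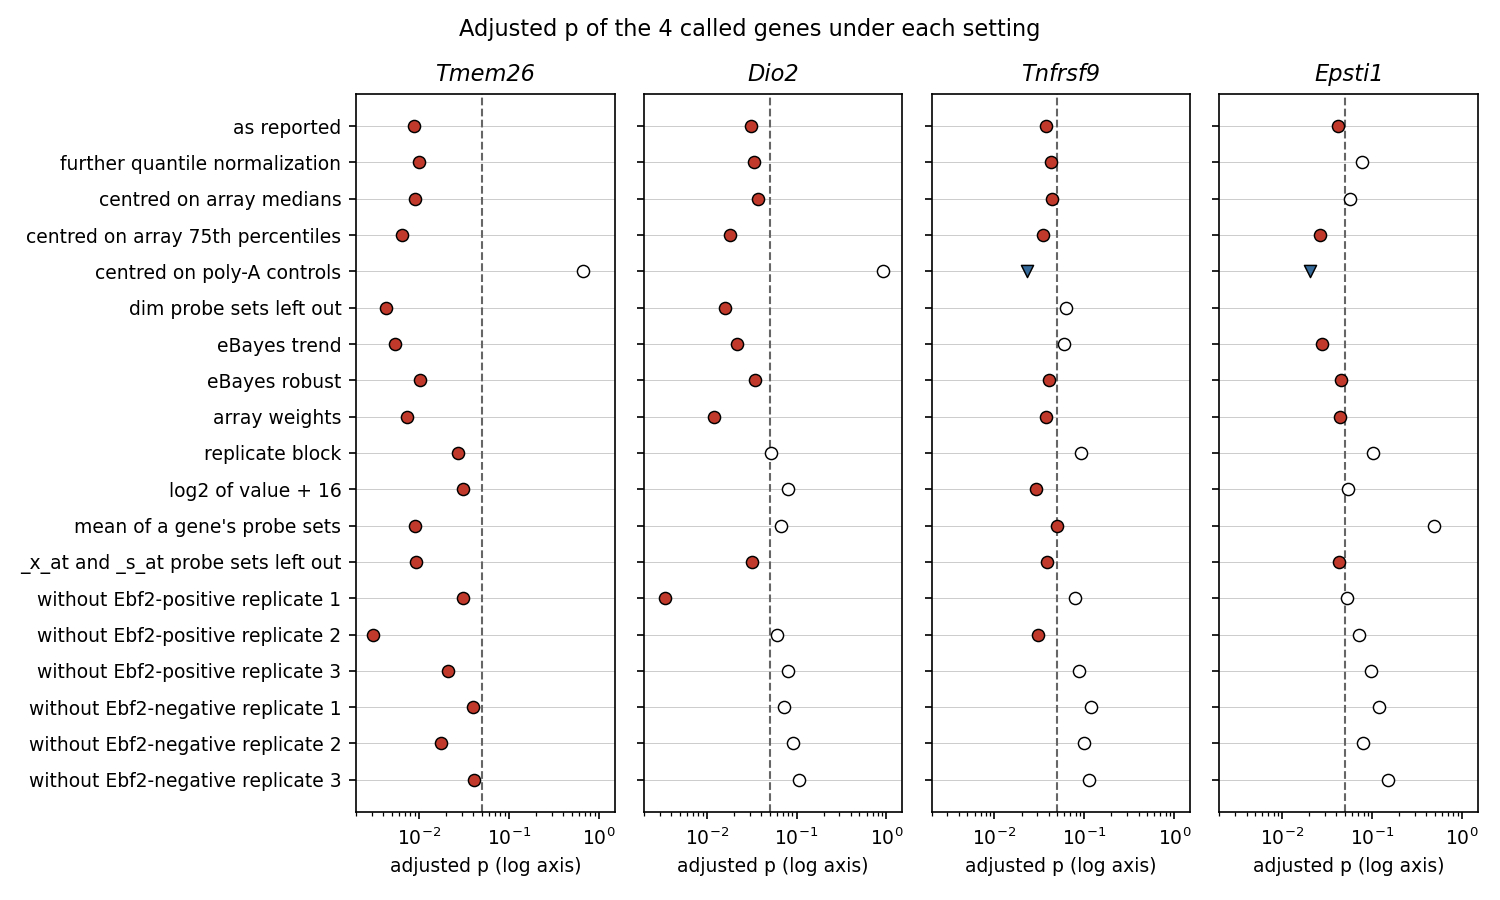
Adjusted p (x axis, log scale) of the 4 called genes under the reported and the 18 alternative settings (rows), with the 0.05 threshold dashed. Red circles are called higher, blue triangles called lower, white circles not called, and an empty row means that the gene was filtered out. Tmem26 is called higher under 17 alternatives, and Tnfrsf9 and Epsti1 become lower with poly-A centring.

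The regulators around the set were measured in both groups. Of 36 brown fat transcription regulators 7 were called higher and 1 lower, beside 10.8% and 13.6% over all genes, with a median of 0.29. Leaving out single arrays gave 5 to 8 higher, with 3 lower without Ebf2-positive replicate 1 and 0 lower without Ebf2-negative replicate 1 or 3. The list holds activators and repressors of brown fat genes, so the count has no single direction for that fate. It also holds Ebf2, whose difference of 4.67 was fixed by the sort. Next among the called genes came Ebf1, its paralogue needed for B cell development (4.11), Twist1, a mesenchymal factor that represses brown fat genes in the mouse (2.92), and Nr4a1, an immediate early nuclear receptor (2.64). The lower gene was Tfam, which maintains mitochondrial DNA (-1.93), and its call was lost without Ebf2-negative replicate 1 or 3 (adjusted p up to 0.0601).

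Pparg, the master regulator of all fat cells, was at 7.23, 6.79 and 7.71 in Ebf2-positive cells, against 3.63, 6.14 and 5.72 in Ebf2-negative cells. The groups did not overlap, but Ebf2-negative replicate 1 lay well below the rest and the difference of 2.08 (SE 0.67) did not pass (limma, adjusted p = 0.0676). Cebpb, an early adipogenic factor, differed by 1.08 (adjusted p = 0.0754), Ppargc1b, the paralogue of Ppargc1a, by 0.82 (adjusted p = 0.145), and Cebpa, a late adipogenic factor, by 0.37 (adjusted p = 0.612). Cebpb averaged 7.26 ± 0.51 in Ebf2-positive cells, against 6.18 ± 0.48 in Ebf2-negative cells (SD, n = 3 each).

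Most genes of fat oxidation and thermogenesis were not called. Of 38 measured, 3 were called higher, 4 lower and 31 not, or 18.4% called beside 24.4% of all genes, with a median of 0.07 beside 0.07 over all genes, and leaving out single arrays gave 2 to 6 higher and 2 to 5 lower. The most, 6 higher and 5 lower, were called without Ebf2-positive replicate 3, and the fewest, 2 and 2, without Ebf2-positive replicate 1 or Ebf2-negative replicate 1 or 2. The largest differences among called genes belonged to Ckb, brain-type creatine kinase (3.53), and Slc6a8, the creatine transporter (3.49). Both kept their calls without any single array. Slc25a20, which carries acylcarnitines into mitochondria (-1.73), and Slc27a1, a fatty acid transport protein (1.56), followed. Slc25a20 was called only without Ebf2-positive replicate 3 among the 6 such fits, and Slc27a1 lost its call without Ebf2-positive replicate 1 or Ebf2-negative replicate 1 or 2 (adjusted p up to 0.106 and 0.089). The lower genes Cpt1a (-1.25) and Cox5a (-1.09) kept their calls in all 6 such fits (limma, adjusted p up to 0.0467 and 0.0382).

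Other genes used to tell beige, brown and white fat apart were called higher for 8 of 22 genes and lower for 0. At an unadjusted p below 0.05 the counts were 9 and 0, and the median was 0.96. Over all genes, 10.8% were called higher and 13.6% lower, with a median of 0.07. The 14 markers not called ran from -0.71 (Slc36a2) to 1.18 (Pdk4), with Tbx1 at 0.01 and Cited1 at -0.04. The count of higher genes ran from 6 to 9 without single arrays. The first among the called genes were Acta2 (7.01) and Myh11 (5.13), contractile proteins of smooth muscle that also mark some beige precursors. Mpzl2, a cell adhesion protein also called Eva1, differed by 4.43 but was called only without Ebf2-positive replicate 2 among the fits that left out an array (adjusted p up to 0.126). Pdgfra, a growth factor receptor of fat progenitors, differed by 3.38. Hoxc8, named after its value was seen, differed by 3.13 and was called in 1 of the 6 fits without an array (limma, adjusted p up to 0.11). Acta2 and Pdgfra also stand in the pericyte and fibroblast list, so this count partly repeats that list.

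Genes of fat cells in general were higher in Ebf2-positive cells where they were called. Of 14 measured white and general adipocyte genes 4 were called higher and 0 lower (4 and 0 at an unadjusted p below 0.05), with a median of 0.37, and 2 were higher without Ebf2-negative replicate 1 or 3. They were Slc2a4, the insulin-sensitive glucose transporter (2.65), Fabp4, a fatty acid binding protein (1.91), Lpl, lipoprotein lipase (1.58), and Cd36, a fatty acid receptor (0.98). Lpl lost its call without Ebf2-negative replicate 1 or 3 and Cd36 also without Ebf2-positive replicate 3 (adjusted p up to 0.0535 and 0.0585).

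Fabp4 was at 11.50, 11.62 and 11.70 in Ebf2-positive cells, against 9.94, 10.01 and 9.13 in Ebf2-negative cells. Adipoq, which encodes the fat hormone adiponectin, was at 6.28, 9.69 and 6.35 in Ebf2-positive cells, against 7.71, 10.19 and 8.33 in Ebf2-negative cells. Its groups overlapped, and the difference of -1.30 did not pass (limma, adjusted p = 0.438).

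**Figure D4:**
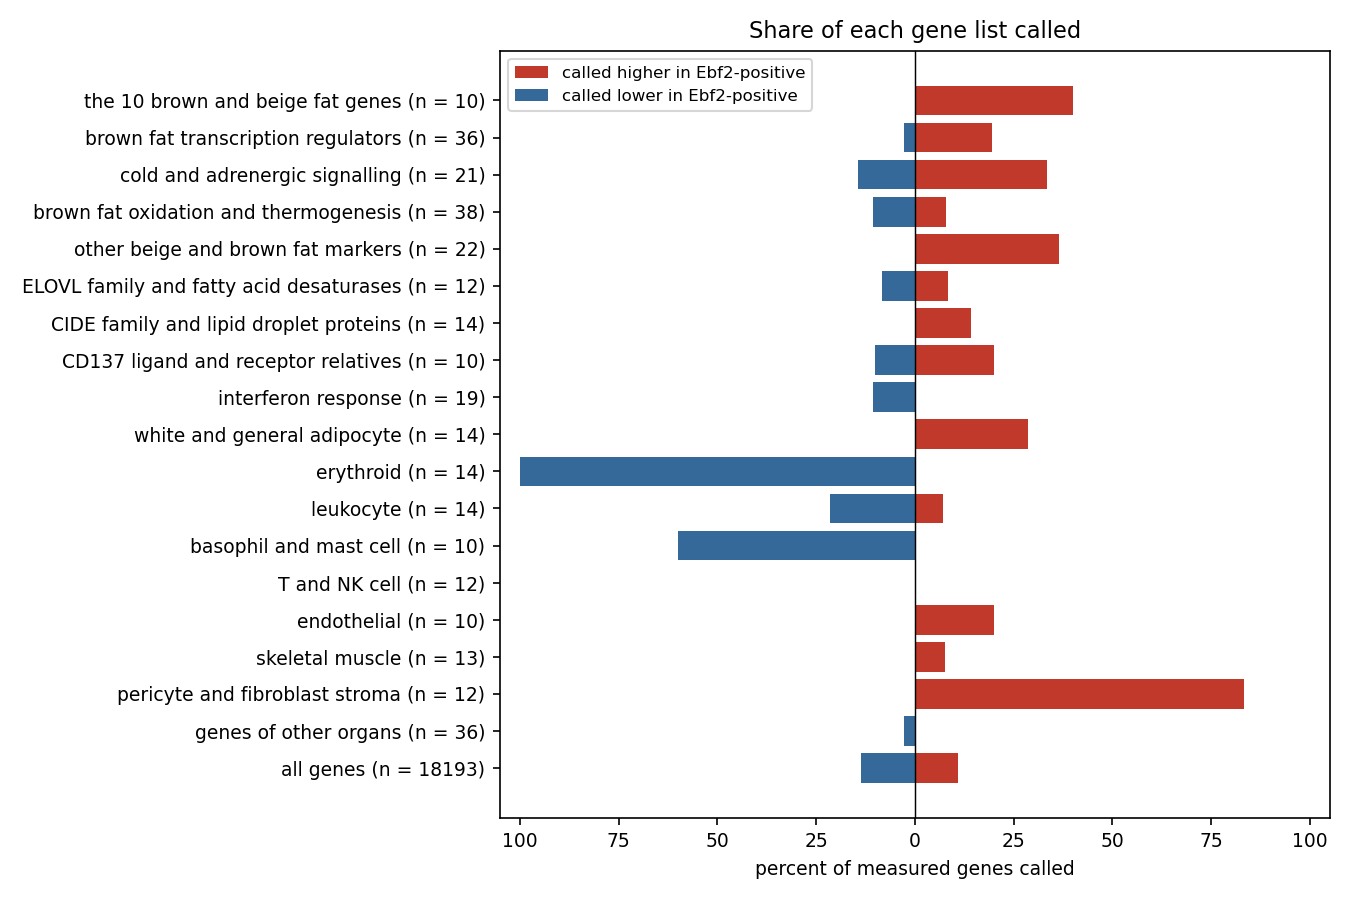
Percent of the measured genes of each list (rows, n in brackets) that were called higher (red, to the right) or lower (blue, to the left) in Ebf2-positive cells. The 10 brown and beige fat genes have 4 called higher, and the erythroid list has all 14 called lower.

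Markers of other cells are given for comparison, among them leukocytes and endothelium, which the gate against CD45 and CD31 was set to leave out. Of 10 basophil and mast cell genes 6 were called lower and 0 higher (7 and 0 at an unadjusted p below 0.05), with list means of 3.70 to 3.82 on Ebf2-positive and 5.91 to 6.81 on Ebf2-negative arrays. Of 14 leukocyte genes 3 were called lower and 1 higher, with means of 5.44 to 6.47 on Ebf2-positive and 6.87 to 6.92 on Ebf2-negative arrays. The lower ones were Vav1 (-3.12), Laptm5 (-2.64) and Itgb2 (-2.04, called in 1 of the 6 fits without an array, adjusted p up to 0.118), and the higher one was Mpo, the myeloperoxidase of granulocyte precursors (1.42). The count of lower leukocyte genes was 6 without Ebf2-positive replicate 2, 1 without Ebf2-negative replicate 3 and 2 to 4 otherwise, and leaving out that same Ebf2-negative array ended the calls of Mpo (adjusted p = 0.0643) and Laptm5 (adjusted p = 0.0547). Of 10 endothelial genes 2 were called higher and 0 lower (2 and 1 at an unadjusted p below 0.05), with means of 5.49 to 6.62 on Ebf2-positive and 4.51 to 5.82 on Ebf2-negative arrays. They were Tek, the angiopoietin receptor (2.51), and Esam, an adhesion molecule (2.48). Of 13 skeletal muscle genes 1 was called higher and 0 lower (3 and 0 at an unadjusted p below 0.05), Tnnt3, a fast troponin (1.44; lost without Ebf2-positive replicate 3 or any Ebf2-negative array, adjusted p up to 0.141), with means of 3.44 to 5.10 on Ebf2-positive and 3.47 to 4.0 on Ebf2-negative arrays. The muscle mean of 5.10 was that of Ebf2-positive replicate 2, with 3.44 and 3.55 on the other two Ebf2-positive arrays. Acta1, skeletal actin, chosen after its values were seen, was at 5.10, 9.51 and 5.11 in Ebf2-positive cells, against 5.87, 7.73 and 6.42 in Ebf2-negative cells. Ebf2-positive replicate 2 was also the array where Cox8b, Prdm16 and Dio2 were highest on their brightest probe sets, while Ppargc1a was highest on replicate 3. Tmem26 (4.92), Tnfrsf9 (4.28) and Cidea (2.65) were instead lowest of the Ebf2-positive arrays on replicate 2, as were the other Prdm16 probe sets. Dio2 probe set 1418938_at was highest on replicate 1 (4.05). Without Ebf2-positive replicate 2 the Cox8b difference was 0.14 (limma, adjusted p = 0.755) and that of Dio2 2.03 (adjusted p = 0.06). Skeletal muscle also expresses Cox8b and Ppargc1a, and the part of any such cell in the values of the 10 genes was not tested.

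The genes closest in pattern to the called members were found by the root mean square distance between log2 levels centred on each gene's own mean over the 6 arrays. For Tmem26 these were Basp1, a membrane-bound growth cone protein (distance 0.17), Chad, a cartilage matrix protein (0.18), and Pdlim7, a cytoskeletal adaptor (0.21). For Dio2 they were Hhipl1 (0.33), Cers6, a ceramide synthase (0.36), and Opcml, a cell adhesion molecule (0.38). For Tnfrsf9 they were Lrrc61 (0.05), Cfap61 (0.07) and Art1 (0.08), and for Epsti1 Cd164 (0.05), Efnb3 (0.08) and Nedd4 (0.08). With 6 arrays and 18193 genes, near matches of this kind are a description of the arrays.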

How the data were processed

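Per the series design text and the submitters' processing notes, the authors made 1 intensity per probe set and array with RMA (background correction, normalization between arrays, summary of probes), and the deposited intensity values are linear, so log2 was taken. The sources used here name no other step. Normalization between arrays can hide differences in total RNA, and amplifying RNA of few cells can add noise, which was not measured apart here.

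Of 45101 probe sets, 64 controls were left out. Annotation paired 34945 with exactly 1 gene. The comparison used limma 3.58.1 under R 4.3.3 (two-sided, Benjamini-Hochberg, threshold 0.05) over 18193 genes and over 45037 probe sets, with 3 arrays per group, whose number limits the precision. The test was checked on simulated data. Figures used matplotlib 3.10.9 in Python 3.11.15.

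The members and the 17 other gene lists were chosen with earlier results of these data known. Named genes were all members with every probe set, up to 4 called genes of each list with the largest differences, 7 fixed fat regulators and markers, of which 1 is not analysed here, and the 3 genes nearest in pattern to each called member. Thra, Dio1, Elovl6, Ptprc, Acta1, Tbx1, Cited1, Slc36a2, Pdk4, Hoxc8, Cpt1a and Cox5a were added after their values were seen. Some list genes are not analysed here. Alternatives were other centrings, a filter on the mean signal, variance models, array weights, log2 of value + 16, other probe set choices, the replicate number as a block, and leaving out each array.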

Additional observations from a re-analysis of the deposited data

How the results depend on the processing

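Tmem26 kept its direction under all 18 alternatives and its call under 17, while the other calls among the fat genes were fragile. The count of called genes was 2 of 5 with a dim filter that kept probe sets whose mean over the arrays exceeded the median probe set mean (Prdm16, Dio2, Tmem26, Tnfrsf9 and Cox8b passed it), 2 of 10 on the log2 scale of value + 16, 1 to 2 without single arrays, and 7, all lower, with poly-A centring. The count of called probe sets, 4 as reported, was 2 with a further quantile normalization, median centring, the dim filter, an intensity trend or a robust fit, 21 (all lower) with poly-A centring, and 0 to 2 without single arrays. Over all genes, 15823 were called with poly-A centring, with 1.43% of calls higher against 44.3% as reported, and 2690 to 4348 without single arrays, fewest without Ebf2-negative replicate 3. Signs turned for Ucp1 with a further quantile normalization (-0.00059) and without Ebf2-positive replicate 1 (-0.0046 to 0.18 without single arrays), and for Prdm16 without Ebf2-positive replicate 2 (-0.093 to 1.40 without single arrays). With poly-A centring Ucp1 (-2.39), Cidea (-1.95), Prdm16 (-1.69), Tnfrsf9 (-1.76), Epsti1 (-1.79), Ppargc1a (-0.95), Elovl3 (-2.15) and Cox8b (-2.07) turned negative, by the shift that this centring applies to every gene, and the medians of all lists other than the pericyte and fibroblast one (2.26) were negative. The cause of the other changes was not tested.

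Replicate numbers do not pair the arrays by the labels. Deviations of same-numbered arrays correlated across genes at 0.06, 0.11 and 0.03, and 5 of 6 arrays correlated best with their own number. With the replicate number as a block, 1 gene (Tmem26, adjusted p = 0.0275) and 1 probe set were called, with 4219 genes called in all. At or under the dim level on all arrays were 6 of the 10 genes, among them Tnfrsf9 and Epsti1, which were called without the block. The part of dimness in the results was not tested.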
